A study of Mus musculus with 4 samples.

Results

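The 10 genes described here encode enzymes, transporters and matrix proteins that control the deposition of mineral in bone. They were chosen by name and for their role, not by their values, and all 10 were found among the 23946 genes measured. Bulk RNA-seq was performed on calvarial bone from mice of 2 genotypes, wild-type and *Twist1*+/-, at postnatal day 21 on a C57BL/6J background, and 1 frontal and 1 parietal library of each is analysed here. *Twist1*+/- mice carry 1 functional copy of *Twist1*, a basic helix-loop-helix transcription factor, in every cell. The paper describes the tissue of the parietal bones as pericranium, bone plate and dura mater, so the RNA was not that of osteoblasts alone. The labels give 12 mice for each strain and do not say how they were pooled, and the paper speaks of replicates, so each set of values, called a library here, may have been estimated over several libraries. The frontal bone is of neural crest and the parietal bone of mesodermal origin.

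Mineral forms when phosphate and calcium meet in a matrix of type I collagen. Osteoblasts bud off matrix vesicles, in which PHOSPHO1 releases phosphate from phospholipid head groups, and the tissue-nonspecific alkaline phosphatase encoded by *Alpl* hydrolyses inorganic pyrophosphate, a strong inhibitor of crystal growth. ENPP1 makes that pyrophosphate outside the cell from ATP, and the membrane protein encoded by *Ank* lets the cell export ATP, from which pyrophosphate is formed. Osteocalcin (*Bglap* and *Bglap2*) and matrix Gla protein (*Mgp*) carry gamma-carboxylated glutamates that bind calcium, and the latter inhibits calcification of soft tissue. Bone sialoprotein (*Ibsp*) and osteopontin (*Spp1*) are acidic glycoproteins of the SIBLING family, and osteonectin (*Sparc*) binds collagen and mineral. Osteoclasts also make osteopontin and bone sialoprotein, and fibroblasts, chondrocytes and vessel walls also make *Mgp* and *Sparc*.

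The pair of osteocalcin genes can hardly be told apart by short reads, so their coding sequences in mm9 are shown. *Bglap* (chr3:88187423-88188386, reverse strand, 4 exons) and *Bglap2* (chr3:88181658-88182621, reverse strand, 4 exons) lie side by side, and their coding sequences of 288 bases differ at 4 positions and are 98.6% identical. Counted from the A of the start codon, with the base of *Bglap* first, the differences are A10C, T14C, A31G and T273C. Capitals mark these bases.
Bglap: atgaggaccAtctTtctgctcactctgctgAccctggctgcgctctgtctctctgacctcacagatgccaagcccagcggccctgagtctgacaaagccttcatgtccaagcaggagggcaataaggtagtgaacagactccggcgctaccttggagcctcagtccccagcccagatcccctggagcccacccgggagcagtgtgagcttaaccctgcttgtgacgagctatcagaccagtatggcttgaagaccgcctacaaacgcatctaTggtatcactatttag
Bglap2: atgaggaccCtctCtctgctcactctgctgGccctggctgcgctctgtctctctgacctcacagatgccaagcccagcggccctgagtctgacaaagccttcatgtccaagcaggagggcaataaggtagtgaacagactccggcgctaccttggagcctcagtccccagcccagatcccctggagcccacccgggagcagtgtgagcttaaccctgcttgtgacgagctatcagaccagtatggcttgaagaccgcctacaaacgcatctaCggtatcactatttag
The longest stretch without a difference is 241 bases, more than the read length of 75 bases. Of all windows of 75 bases in the *Bglap* transcript, 66.1% also occur in a transcript of *Bglap2* or of the third copy, *Bglap3*, and for *Bglap2* the share is 73.3%. The authors' quantification may therefore have split such reads between the copies, and the values of *Bglap* and *Bglap2* are not independent of each other.

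Expression is given as FPKM, the fragments mapped to a gene scaled by the length of its transcript and by the mapped fragments of the library, which allows levels of different genes to be set side by side. As 1 value per gene is analysed for each group, differences could not be checked against replicates or tested, and FPKM do not give the number of reads behind a value. A gene was called where the FPKM of the pair of libraries were more than 3-fold apart and the higher was at least 1. In frontal bone *Twist1* was at 59.0 FPKM in the wild type and at 30.4 in *Twist1*+/-. In parietal bone it was at 52.5 FPKM in the wild type and at 50.7 in the library labelled *Twist1*+/-, which goes against that label, and each direction given for this library rests on the label alone. By RT-qPCR relative to *Gapdh*, the paper reports more *Twist1* in parietal than in frontal bone at this age. The wild-type libraries, at 52.5 and 59.0 FPKM, do not show that order either. A listed 0 is not always absence. The collagen genes *Col1a1* and *Col1a2* are listed at 0 in all libraries except wild-type parietal bone, although osteoblasts express them strongly. None of the 10 mineralization genes is listed at 0 in any library, and together they held between 3.92% and 4.63% of the summed FPKM.

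Among the phosphate-releasing enzymes, *Alpl* (mm9 chromosome 4, 137297648 to 137352299, 12 exons) was at 143.5 FPKM in wild-type and 172 in *Twist1*+/- frontal bone, and at 143.7 in wild-type and 248 in labelled *Twist1*+/- parietal bone. Both wild-type bones had nearly equal levels, and the labelled *Twist1*+/- parietal library was the highest. *Phospho1* (chromosome 11, 95685813 to 95693454, 3 exons) was at 135 FPKM in wild-type and 138 in *Twist1*+/- frontal bone, and at 63.3 in wild-type and 241.5 in labelled *Twist1*+/- parietal bone. The frontal libraries were alike, wild-type parietal bone was the lowest and the labelled *Twist1*+/- parietal library the highest, 3.81-fold above wild-type parietal bone (log2 ratio 1.93). An annotated transcript of the neighbouring gene *Zfp652*, on the same strand, contains 84.6% of the 75-base windows of *Phospho1*. *Zfp652* was between 5.88 and 8.48 FPKM in the 4 libraries, below *Phospho1* in each of them. These values depend on how the authors' quantification assigned reads of shared windows, and the part of such reads in the *Phospho1* values was not tested. Fewer cells of a type and less RNA per cell cannot be told apart in RNA from whole bone, here and for each gene that follows.

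**Figure D1:**
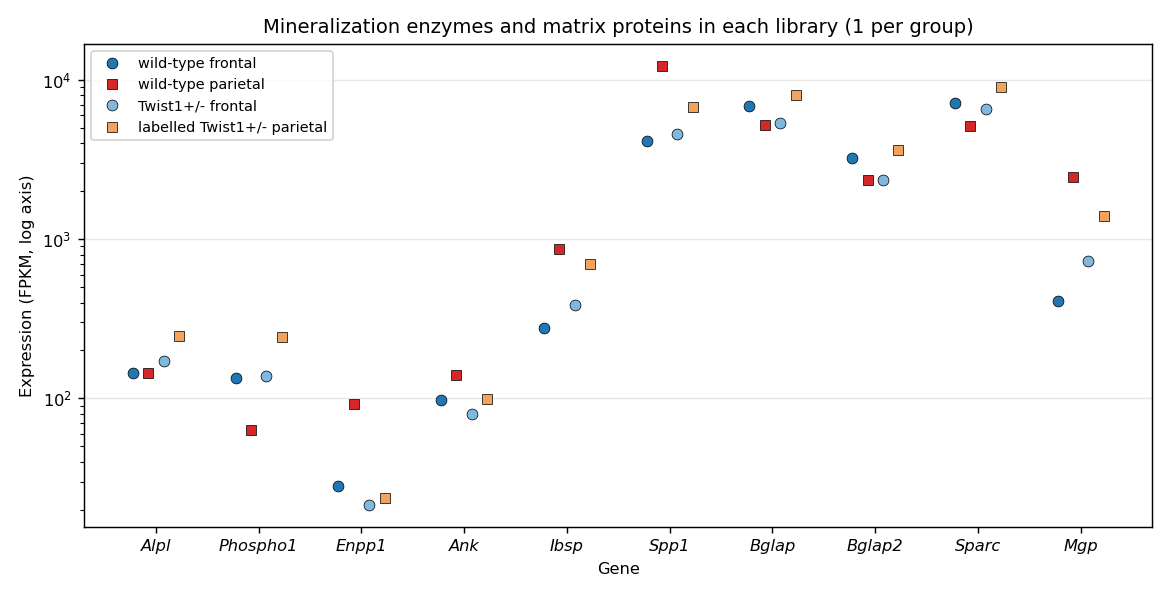
Expression of the 10 genes in each library, in FPKM on a log axis, with 1 point per library and no error bars because each group has 1 library. *Enpp1*, *Ank*, *Ibsp*, *Spp1* and *Mgp* are highest in wild-type parietal bone, and the other 5 genes are highest in the library labelled *Twist1*+/- parietal.

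The genes that supply pyrophosphate were highest in wild-type parietal bone, where *Phospho1* was lowest. *Enpp1* (chromosome 10, 24357720 to 24431965, 25 exons) was at 28.3 FPKM in wild-type and 21.5 in *Twist1*+/- frontal bone, and at 92.2 in wild-type and 23.7 in labelled *Twist1*+/- parietal bone. Wild-type parietal bone stood above the other libraries, which lay within 1.32-fold of each other. It was 3.88-fold higher than the labelled *Twist1*+/- parietal library (log2 ratio of the latter to wild type -1.96) and 3.25-fold higher than wild-type frontal bone (log2 ratio 1.70). *Ank* (chromosome 15, 27396432 to 27524664, 12 exons) was also highest in wild-type parietal bone, at 141 FPKM, against 99.2 in the labelled *Twist1*+/- parietal library, 97.4 in wild-type and 79.4 in *Twist1*+/- frontal bone. Its highest and lowest values differed by 1.78-fold, within the 3-fold threshold.

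The ratio of 2 genes within a library does not depend on how the libraries were scaled to each other, but can depend on the GC content of the genes. The ratio of *Phospho1* to *Enpp1* was 4.75 in wild-type and 6.43 in *Twist1*+/- frontal bone, and 0.687 in wild-type and 10.2 in labelled *Twist1*+/- parietal bone. Wild-type parietal bone was thus the only one of the 4 libraries with more *Enpp1* than *Phospho1* per unit of length. The ratio was 14.8-fold higher in the labelled *Twist1*+/- than in wild-type parietal bone, and 6.70-fold higher after subtraction of the median log2 ratio of genes with like GC content, which is 60.6% in *Phospho1* and 45.8% in *Enpp1*. These are the 2 genes past 3-fold between the parietal libraries, in opposite directions. Their ratio therefore joins the 2 differences given above and is not a further result. *Alpl* exceeded *Enpp1* in every library, by 5.06-fold in wild-type and 8.02-fold in *Twist1*+/- frontal bone, and by 1.56-fold in wild-type and 10.4-fold in labelled *Twist1*+/- parietal bone. The ratio of *Alpl* to *Ank* varied less, from 1.02 in wild-type parietal to 2.49 in labelled *Twist1*+/- parietal bone.

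**Figure D2:**
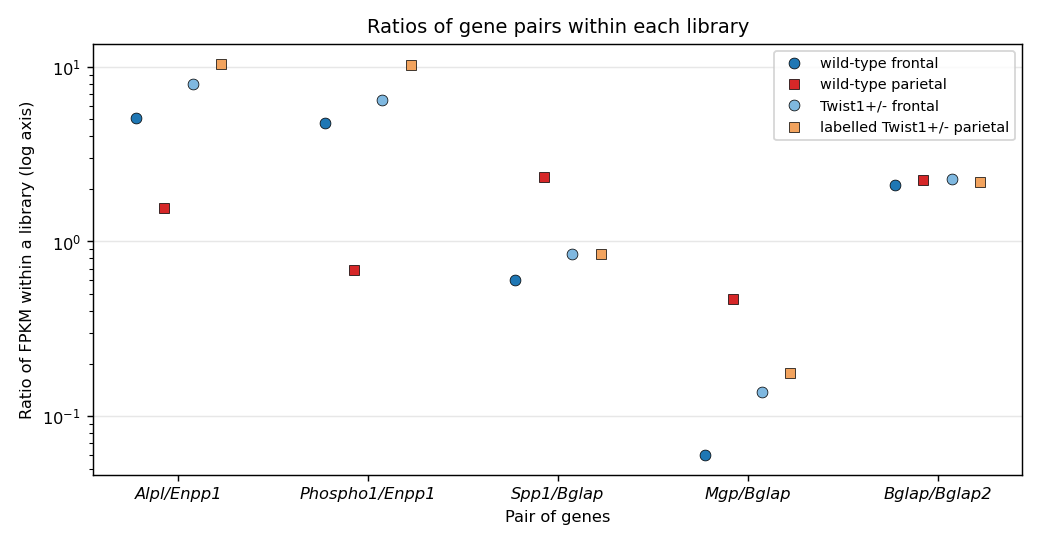
Ratios of FPKM between pairs of genes within each library, on a log axis, with 1 point per library. For *Alpl*/*Enpp1* and *Phospho1*/*Enpp1* wild-type parietal bone lies below the other 3 libraries, for *Spp1*/*Bglap* and *Mgp*/*Bglap* it lies above them, and *Bglap*/*Bglap2* stays between 2.09 and 2.29.

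*Phospho1* and *Enpp1* were the genes past 3-fold between the parietal libraries, and the 250 bases before the RefSeq start of each (GRCm38.p6) are shown with matches to CANNTG, the E-box bound by basic helix-loop-helix factors, in capitals. The motif reads the same way on both strands as written.
Phospho1, chr11:95824250-95824499, forward strand: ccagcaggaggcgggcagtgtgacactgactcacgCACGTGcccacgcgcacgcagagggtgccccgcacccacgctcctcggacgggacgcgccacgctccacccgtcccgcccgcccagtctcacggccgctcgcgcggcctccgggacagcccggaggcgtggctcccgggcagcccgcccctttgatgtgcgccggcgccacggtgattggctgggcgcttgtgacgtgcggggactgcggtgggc
Enpp1, chr10:24712160-24712409, reverse strand: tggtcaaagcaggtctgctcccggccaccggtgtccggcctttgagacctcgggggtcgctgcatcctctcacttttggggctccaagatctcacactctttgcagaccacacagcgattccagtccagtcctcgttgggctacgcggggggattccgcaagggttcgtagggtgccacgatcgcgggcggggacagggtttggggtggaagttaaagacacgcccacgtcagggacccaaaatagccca
*Phospho1* has 1 match, CACGTG, beginning 215 bases before the start, and *Enpp1* has 0 matches in this window. Of 32851 windows of the same length in the table, 66.2% hold at least 1 match, so its presence or absence describes the letters only and gives no measure of Twist1 binding. Starts were found for 8 of the 10 genes, and among the others the number of matches ranged from 0 (*Ank*) to 3 (*Ibsp*).

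Transcripts of the acidic matrix proteins bone sialoprotein and osteopontin were higher in parietal than in frontal bone in both genotypes, as the libraries are labelled. Their genes lie in a cluster of 5 SIBLING genes on chromosome 5 of mm9 that spans 270.3 kb, *Ibsp* at 104728190 to 104740488 with 7 exons and *Spp1* at 104864137 to 104870069 with 6 exons, both on the forward strand. *Ibsp* was at 278 FPKM in wild-type and 388 in *Twist1*+/- frontal bone, and at 869 in wild-type and 703 in labelled *Twist1*+/- parietal bone. *Spp1* was at 4107 FPKM in wild-type and 4579 in *Twist1*+/- frontal bone, and at 12239 in wild-type and 6724 in labelled *Twist1*+/- parietal bone, and ranked between 4 and 7 among all genes in the 4 libraries. Both genes kept the same order of libraries, with wild-type parietal bone highest and wild-type frontal bone lowest. Between the wild-type bones *Ibsp* differed by 3.13-fold and *Spp1* by 2.98-fold, on either side of the 3-fold threshold. Between the labelled *Twist1*+/- parietal and the *Twist1*+/- frontal library the differences were 1.81-fold and 1.47-fold.

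Osteocalcin and osteonectin, among the most abundant transcripts of these bones, varied by less than 2-fold. *Bglap*, the late osteoblast marker, was at 6811 FPKM in wild-type and 5371 in *Twist1*+/- frontal bone, and at 5220.3 in wild-type and 7982 in labelled *Twist1*+/- parietal bone. *Bglap2* was at 3255 FPKM in wild-type and 2346 in *Twist1*+/- frontal bone, and at 2336 in wild-type and 3624 in labelled *Twist1*+/- parietal bone, with the same order of libraries. The ratio of *Bglap* to *Bglap2* lay between 2.09 and 2.29. *Sparc* (chromosome 11, 55208002 to 55233582, 10 exons) was at 7179.9 FPKM in wild-type and 6526 in *Twist1*+/- frontal bone, and at 5099.6 in wild-type and 9089 in labelled *Twist1*+/- parietal bone. For all 3 genes wild-type parietal bone was the lowest and the labelled *Twist1*+/- parietal library the highest, and the highest value was between 1.53 and 1.78 times the lowest. In frontal bone the *Twist1*+/- library was the lower for each of them, with log2 ratios between -0.47 and -0.14.

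*Mgp* (chromosome 6, 136820957 to 136824326, 4 exons) varied most among the 10 genes. It was at 407 FPKM in wild-type and 735 in *Twist1*+/- frontal bone, and at 2460.3 in wild-type and 1408 in labelled *Twist1*+/- parietal bone. Wild-type parietal bone had 6.04 times the level of wild-type frontal bone (log2 ratio 2.59). The genotypes differed in opposite directions in the 2 bones, with log2 ratios of *Twist1*+/- to wild type of 0.85 in frontal bone and -0.81 for the labelled library in parietal bone. Relative to osteocalcin, *Mgp* was 0.0598 of the *Bglap* level in wild-type and 0.137 in *Twist1*+/- frontal bone, and 0.471 in wild-type and 0.176 in labelled *Twist1*+/- parietal bone. The ratio of *Spp1* to *Bglap* was 0.603, 0.852, 2.34 and 0.842 in the same order of libraries, and wild-type parietal bone again stood apart.

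The question of the parietal comparison was how *Twist1* haploinsufficiency alters the bone that derives from mesoderm. In the library labelled *Twist1*+/- parietal bone, *Phospho1* was higher and *Enpp1* lower than in wild-type parietal bone by more than 3-fold, 2 of 10 genes, against a background of 8.19% of 13914 genes. Among genes that reached 10 FPKM in the higher library, as all 10 did, the background was 4.41% of 7319. By direction, 5.25% of the 13914 genes were called higher and 2.94% lower. A count of 2 among 10 genes beside these shares is no result about the group. Of the others, *Alpl*, *Bglap*, *Bglap2* and *Sparc* were higher by log2 ratios between 0.61 and 0.83, and *Ank*, *Ibsp*, *Spp1* and *Mgp* were lower, with log2 ratios between -0.86 and -0.31. The median of the 10 genes was 0.15, beside -0.06 over all genes tested. Scaling to *Gapdh* left *Phospho1* as the only call among the 10, beside 9.98% of all genes, and turned *Ibsp* to 0.08. Scaling to a list of 10 osteoblast genes left *Enpp1* as the only call, beside 13.9% of all genes. It brought *Bglap* and *Bglap2* to -0.04 and -0.02. That osteoblast list, which includes *Sp7* and *Pth1r*, was itself higher in the labelled library, with a median log2 ratio of 0.65 and 7 of 10 genes above 0, and a median of 0.34 with GC content subtracted.

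**Figure D3:**
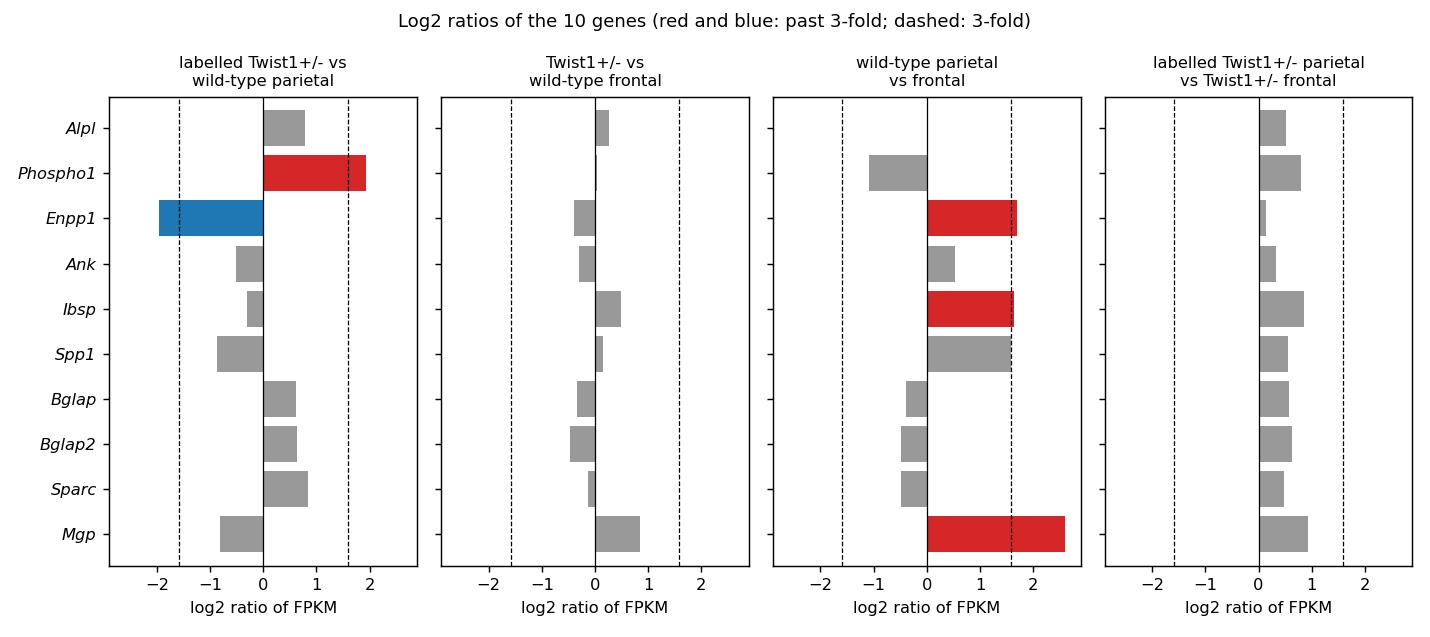
Log2 ratios of FPKM for the 10 genes in 4 comparisons, 1 panel each, from 1 library per group. Coloured bars are past 3-fold (dashed lines), namely *Phospho1* and *Enpp1* between the parietal libraries and *Enpp1*, *Ibsp* and *Mgp* between the wild-type bones, and no bar passes it in the other panels.

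The ratio between the parietal libraries also went with the GC content of the gene. Across 12555 genes, which are not independent replicates and share both libraries, Spearman's rho was 0.545. It was 0.416 between the *Twist1*+/- bones (12980 genes), 0.11 between the frontal libraries (13008 genes) and -0.13 between the wild-type bones (12853 genes). The 5 genes that were highest in wild-type parietal bone had GC contents between 43.3% and 51.4% over their longest transcript, and the 5 that were highest in the labelled *Twist1*+/- parietal library had GC contents between 52.5% and 60.6%, without overlap. These groups were formed by their values. Over all genes tested between the parietal libraries the median GC content was 50.7%, and the percentiles 5 and 95 were 40.4% and 60.2%. After subtraction of the median log2 ratio in each of 20 groups of genes ordered by GC content, *Enpp1* was at -1.52 and *Phospho1* at 1.23. Then 0 of the 10 genes remained past 3-fold, beside 6.73% of all genes. Subtraction turned *Ibsp* to 0.16, and the other 9 genes kept their direction, with *Sparc* at 0.77, *Mgp* at -0.80 and *Spp1* at -0.28.

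**Figure D4:**
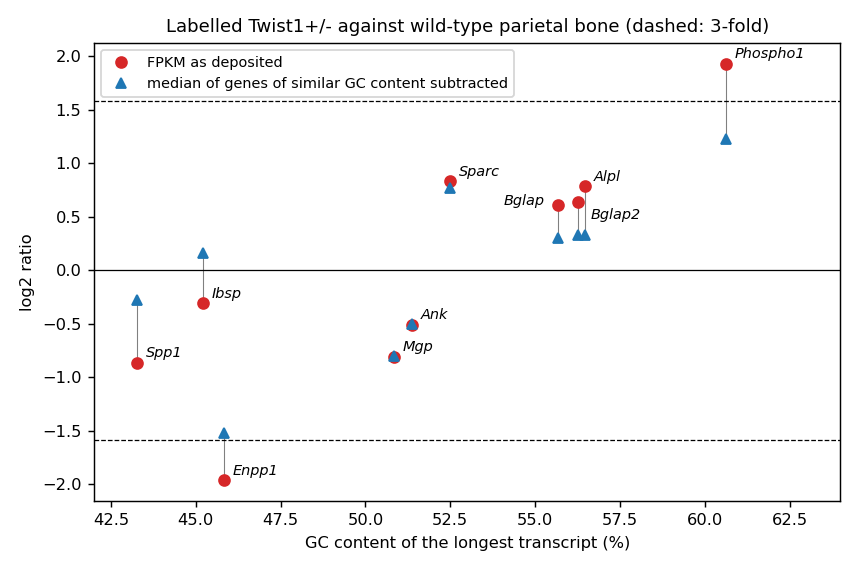
Log2 ratio of the library labelled *Twist1*+/- parietal to wild-type parietal bone against the GC content of each gene's longest transcript, for FPKM as deposited (circles) and after subtraction of the median of genes of similar GC content (triangles). Circles run from negative values at low GC content to positive values at high GC content, and no triangle lies past 3-fold (dashed lines).

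The frontal comparison asked the same of the bone derived from the neural crest. None of the 10 genes differed by more than 3-fold between *Twist1*+/- and wild-type frontal bone, against a background of 3.89% of 14341 genes and of 2.24% of the 7099 genes that reached 10 FPKM. *Mgp* had the largest difference, 1.80-fold higher in *Twist1*+/- frontal bone, followed by *Ibsp* (log2 ratio 0.48) and *Bglap2* (-0.47). *Alpl* differed by 0.26, *Enpp1* by -0.40, *Ank* by -0.29, *Spp1* by 0.16 and *Phospho1* by 0.04 on the log2 scale, the last of which changed sign when scaled to *Gapdh* or corrected for GC content. The median of the 10 genes was -0.05, beside -0.04 over all genes tested. These libraries had muscle genes in unequal amounts, given with the other cell types.

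Between the wild-type bones, *Enpp1*, *Ibsp* and *Mgp* were higher in parietal bone by more than 3-fold, 3 of 10 genes, and none of the 10 was lower by that much. The background was 13.3% of 14214 genes in either direction, 4.07% higher in parietal and 9.20% higher in frontal bone. Of 7563 genes that reached 10 FPKM, 8.26% were called in either direction and 3.50% as higher in parietal bone. At a threshold of 2-fold 5 of the 10 genes were called, with *Spp1* and *Phospho1* added, against 26.9% of the 14214 genes. *Ank* was higher in parietal bone by 0.54 on the log2 scale, *Phospho1* was 2.13-fold higher in frontal bone, and *Alpl* had a log2 ratio of 0.00, which turned negative when the libraries were scaled to the median ratio, to *Gapdh* or to the osteoblast list. With scaling to *Gapdh*, which was itself higher in wild-type parietal bone by 0.44, *Mgp* was the only call, beside 16.2% of all genes. The call of *Ibsp* also ended when its ratio was scaled to the osteoblast list (1.53) or corrected for GC content (1.48). This comparison and that of the parietal bones share the wild-type parietal library.

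Between the *Twist1*+/- bones all 10 genes were higher in the labelled parietal library, by 1.11-fold (*Enpp1*) to 1.92-fold (*Mgp*), and none passed 3-fold, against a background of 4.09% of 14305 genes and of 1.75% of the 7140 that reached 10 FPKM. The median log2 ratio of the 10 genes was 0.56, beside -0.03 over all genes tested. After scaling to the osteoblast list, which was higher in that library by 0.42, *Enpp1* and *Ank* changed sign, to -0.28 and -0.10. *Ibsp* and *Phospho1* were 0.86 and 0.81 higher on the log2 scale. *Ibsp*, *Spp1* and *Mgp* were higher in parietal bone here as between the wild-type bones, at smaller size. That order was not particular to them. *Phospho1*, *Bglap*, *Bglap2* and *Sparc*, which were lower in wild-type parietal than in frontal bone, were also higher here.

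Of 20 other genes of mineralization, 3 were called between the parietal libraries, where 8.19% of all genes tested were, and each of these, *Dspp*, *Col1a1* and *Col1a2*, is listed at 0 in 1 of the 2 libraries. *Dspp* encodes the main acidic protein of dentin and lies in the SIBLING cluster. It was at 0.0771 FPKM in wild-type and 37.6 in *Twist1*+/- frontal bone and at 3.14 in the labelled *Twist1*+/- parietal library, and is listed at 0 in wild-type parietal bone. It was the 1 gene of the list called between the frontal libraries, beside 3.89% of all genes, and the 1 called between the *Twist1*+/- bones, beside 4.09%. Other markers of the tooth were not confined to the libraries with *Dspp*. *Amelx*, the main matrix protein of forming enamel, was at 10.8 FPKM in wild-type and 39.6 in *Twist1*+/- frontal bone. In parietal bone it was at 0.0760 FPKM in the wild type and 101 in the labelled *Twist1*+/- library. *Ambn*, also of the tooth list, was at 10.9, 18.1, 4.50 and 17.3 FPKM in the same order of libraries. Between the wild-type bones, with 13.3% of all genes called, *Col1a1* and *Col1a2* were the 2 genes of the list called, again through values listed at 0, and the median log2 ratio of the 16 genes above 0 in both bones was 0.71.

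*Dmp1*, made by osteocytes, came closest to the threshold between the wild-type bones, at 99.4 FPKM in wild-type and 91.1 in *Twist1*+/- frontal bone, and at 291 in wild-type and 159 in labelled *Twist1*+/- parietal bone. *Mepe*, another SIBLING gene of osteocytes, was highest in labelled *Twist1*+/- parietal bone, at 239 FPKM, against 152 in the wild type there, and was at 70.5 in wild-type and 124 in *Twist1*+/- frontal bone. Both were thus higher in parietal than in frontal bone of either genotype, as were *Ibsp* and *Spp1*. *Smpd3*, a sphingomyelinase needed for mineralization, had the order of libraries seen for *Bglap*, at 63.1 FPKM in wild-type and 56.2 in *Twist1*+/- frontal bone, and at 30.7 in wild-type and 82.8 in labelled *Twist1*+/- parietal bone. *Phex*, a peptidase of osteocytes, was at 75.7 FPKM in wild-type and 30.3 in labelled *Twist1*+/- parietal bone, with a log2 ratio of -1.32 that became -0.73 after subtraction for GC content. Its values in frontal bone were 34.5 FPKM in wild-type and 43.3 in *Twist1*+/- mice.

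The annexins of matrix vesicles and the phosphate importers did not pass 3-fold in any comparison. *Anxa2* and *Anxa5* were highest in wild-type parietal bone, at 566 and 434 FPKM, and above frontal bone in both genotypes. *Nt5e*, which turns AMP into adenosine, reached 10.9 FPKM in wild-type parietal bone, against 3.92 to 5.60 FPKM in the other libraries. The phosphate importer *Slc20a1* ranged from 21.4 FPKM in labelled *Twist1*+/- parietal to 48.1 FPKM in wild-type frontal bone. Of the genes for gamma-carboxylation, *Ggcx* stayed between 13.0 and 23.4 FPKM and *Vkorc1* between 188 and 463 FPKM, and *Vkorc1* shares 79.6% of its 75-base windows with a transcript of *Prss53*. *Bglap3* was between 3.57 and 7.11 FPKM, far below *Bglap* in each library. *Abcc6*, through which cells release ATP in the liver, stayed below 1 FPKM in each library, and *Ahsg*, the liver gene for fetuin-A, was at 0.101 FPKM or less and is listed at 0 in both parietal libraries.

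**Figure D5:**
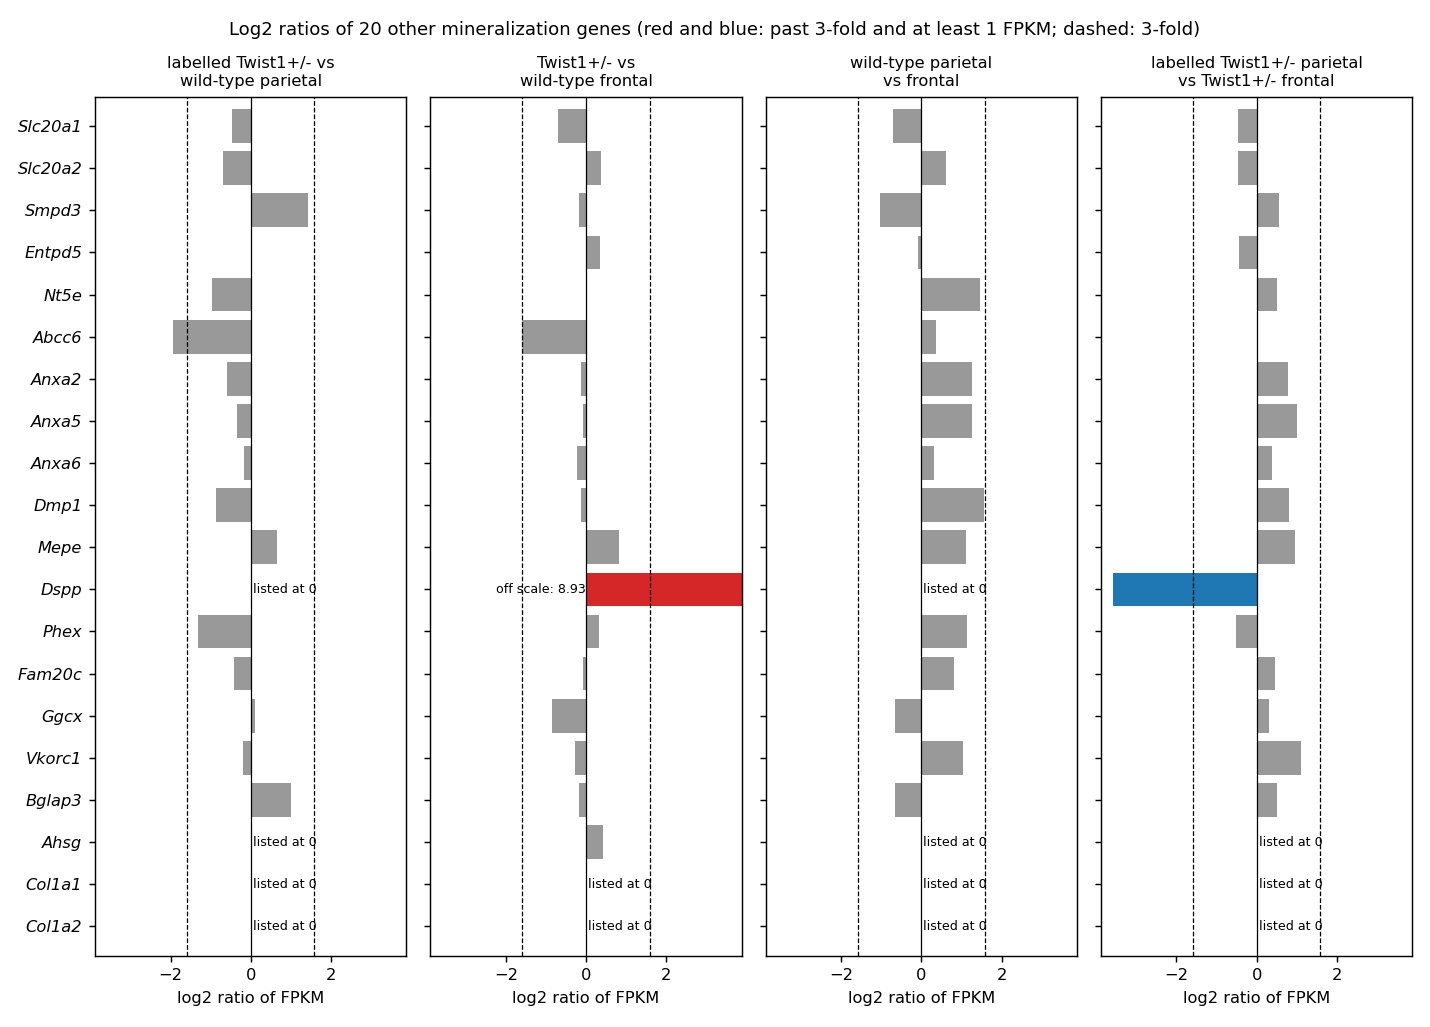
Log2 ratios of FPKM for 20 other mineralization genes in 4 comparisons, with 1 library per group. Coloured bars are past 3-fold (dashed lines) with at least 1 FPKM in the higher library, which *Dspp* alone reached among genes with a ratio, and genes listed at 0 in a library of the pair have no ratio.

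Profiles over the 4 libraries were compared among 5316 genes at or above 10 FPKM in each library, as the Euclidean distance between log2 FPKM values centred on their mean. Nearest to *Phospho1* were *Klf2* (distance 0.165), *H2-Ab1* (0.185) and *Creb3l1* (0.215), and nearest to *Enpp1* were *Fabp5* (0.335), *BC028528* (0.348) and *Hddc2* (0.364). The genes nearest to *Ibsp* were *1110008P14Rik* (0.138), *2310039H08Rik* (0.161) and *Acp5* (0.179), which encodes the tartrate-resistant acid phosphatase of osteoclasts. For *Mgp* they were *Gpihbp1* (0.302), *Tpm2* (0.370) and *Ctsk* (0.437), which encodes the collagen-degrading protease of osteoclasts. Among the 10 genes themselves, the nearest to *Ibsp* was *Spp1* (0.493) and the nearest to *Phospho1* was *Sparc* (0.797). A profile over 4 libraries has few coordinates, and likeness here says nothing of shared function or control.

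Markers of osteoclasts moved with *Ibsp*, *Spp1* and *Mgp* between the wild-type bones. Of 10 osteoclast genes, 6 were called higher in wild-type parietal than in frontal bone, beside 4.07% of all genes tested. The summed level of the 10 was 2659 FPKM in wild-type and 3305 in *Twist1*+/- frontal bone, and 9256 in wild-type and 6774 in labelled *Twist1*+/- parietal bone, with no marker at 0. *Acp5* was at 1098, 1389, 3345 and 2990.2 FPKM in that order. No osteoclast gene was called in the other comparisons. The share of all genes called was 8.19% between the parietal libraries, 3.89% between the frontal libraries and 4.09% between the *Twist1*+/- bones. In the same order the median log2 ratio of the list was -0.47, 0.13 and 0.84. The part of osteoclasts in the levels of *Ibsp*, *Spp1* and *Mgp* was not tested. Vascular markers summed to 419 FPKM in wild-type parietal against 200.5 FPKM in wild-type frontal bone. Of these, 3 of 10 were called higher in parietal bone, beside 4.07% of all genes tested. The 3 were *Acta2*, *Tagln* and *Rgs5* of smooth muscle and pericytes. Over the whole list 5 genes were higher and 5 lower in parietal bone, with a median log2 ratio of 0.15. Chondrocyte genes summed to between 110.1 and 132.4 FPKM in the 4 libraries, of which *Col11a1* made up most. It was at 114 FPKM in wild-type and 97.7 in *Twist1*+/- frontal bone, and at 62.2 in wild-type and 86.5 in labelled *Twist1*+/- parietal bone. Between the wild-type bones 8 of the 10 genes were higher in parietal bone, with a median log2 ratio of 1.27. There 3 of 10 were called higher, beside 4.07% of all genes tested. Between the parietal libraries 4 of 10 were called lower in the labelled *Twist1*+/- library, beside 2.94%, and *Matn1* was listed at 0 in it. The part of vascular cells and chondrocytes in the levels of *Mgp* and *Sparc* was not tested.

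Markers of skeletal muscle, meninges, nasal epithelium, tooth and neutrophils differed between the libraries. Skeletal muscle genes summed to 101.3 FPKM in wild-type and 1028 in *Twist1*+/- frontal bone, and to 3157 in wild-type and 1443 in labelled *Twist1*+/- parietal bone. Of 10, 9 were called higher in wild-type parietal than in wild-type frontal bone, beside 4.07% of all genes tested. Likewise 9 of 10 were called higher in *Twist1*+/- frontal than in wild-type frontal bone, beside 3.17%. In the same order of libraries the 8 meningeal genes summed to 2040.1, 372, 109.6 and 483 FPKM, of which *Ptgds* made up most. The other 7 genes summed to 65.5, 45.2, 56.8 and 54.1 FPKM, but were not alike. *Ptgds*, *Slc6a13* and *Slc22a6*, 3 of 8, were called lower in wild-type parietal than in wild-type frontal bone, beside 9.20% of all genes tested. The same 3 were called lower in *Twist1*+/- than in wild-type frontal bone, beside 0.725%. Of the 8 genes, 3 were higher in the former comparison and 1 in the latter. In the order of libraries used above, nasal epithelial genes summed to 316, 1517, 22.3 and 1626 FPKM, tooth genes to 22.9, 101.6, 4.85 and 127 FPKM and neutrophil genes to 15827, 17708, 7766 and 10027 FPKM. The tooth list has 1 gene listed at 0 in each wild-type library, and the nasal list has 1 in every library. Osteoblast genes summed to 732, 690, 829 and 1036 FPKM and osteocyte genes to 251, 323, 611 and 527 FPKM in the same order, and none of the genes of either list was at 0. *Dlx3* was the 1 osteoblast gene called in any comparison, higher in the labelled *Twist1*+/- than in wild-type parietal bone. Between these libraries 5.25% of all genes tested were called higher and 2.94% lower. Of the 6 osteocyte genes *Sost* was called higher (log2 ratio 2.04) and *Fgf23* lower (-6.69) there. *Fgf23* was also called between the wild-type bones (5.31), beside 13.3% of all genes, and between the *Twist1*+/- bones (-2.31), beside 4.09%. The lists for osteocytes and teeth share *Dmp1*, *Mepe*, *Phex* and *Dspp* with the list of other mineralization genes. The part of these tissues in the values of the 10 genes was not tested.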

How the data were processed

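Per the paper's methods, poly(A) RNA was captured, stranded libraries were built, and single-end reads of 75 bases were obtained, which the authors aligned to mm9 with STAR (version 2.4.2a) and quantified with Cuffdiff (Cufflinks version 2.2.1, iGenomes annotation). The values deposited by the authors for each gene are FPKM, and the scaling option of Cuffdiff is not given in the sources used here. FPKM are not counts, so no count model, interval or detection floor was used.

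From these values log2 ratios were computed with Python (version 3.11.15) without a pseudocount. A gene was called at more than 3-fold with at least 1 FPKM in the higher library, and a gene listed at 0 in 1 library was called when the other was at least 1 FPKM. With 1 library per group no test was made. The 10 genes and all lists (20 other mineralization genes and 10 lists of cell type markers) were chosen by role, with earlier results of these data known. Genes named are the 10, other mineralization genes past 3-fold or listed at 0, *Twist1* and, for each of the 10 past 3-fold, the 3 genes with the nearest profile. Further genes were named after their values were seen.

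Positions, exons, GC content and shared windows came from GENCODE M1 on mm9, which is not the annotation the authors used and gave a GC value for 80.8% of the genes and for all 10 described here, and sequences before gene starts came from RefSeq on GRCm38.p6. As alternatives, 1 or 0.1 FPKM was added to each value, the floor was left out or set at 10 FPKM, and the others were a 2-fold threshold, scaling to the median ratio, to *Gapdh* or to 10 osteoblast genes, and subtraction of the median ratio in 20 groups of genes by GC content. The procedures were tested on simulated data.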

Additional observations from a re-analysis of the deposited data

Results flagged for a closer look

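*Mgp* differed between the genotypes in opposite directions in the 2 bones. It was higher in *Twist1*+/- than in wild-type frontal bone by a log2 ratio of 0.85 and lower in the library labelled *Twist1*+/- parietal than in wild-type parietal bone, with a log2 ratio of -0.81, so that the parietal ratio minus the frontal ratio was -1.66. With 1 library per group this difference was not tested. Signs were opposite in the bones for 6 of the 10 genes, but for the other 5 of these the ratios as deposited differed by less than 3-fold. Under other scalings more genes had opposite signs and ratios more than 3-fold apart. These were *Spp1* (-1.70) with scaling to the osteoblast list, and *Bglap2* (1.60) and *Phospho1* (2.39) with scaling to *Gapdh*. *Mgp* kept opposite signs under each scaling, but with scaling to *Gapdh* the difference was -1.16, less than 3-fold. With scaling to *Gapdh* or GC content subtracted *Ibsp* had 1 sign in both bones, and with scaling to the osteoblast list so had *Bglap* and *Bglap2*. *Phospho1* had a larger difference of 1.89, with the same sign in both bones as deposited and ratios of 1.93 and 0.04.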

How the results depend on the processing

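Of 240 log2 ratios of single genes recomputed under another setting, 221 kept their direction and their side of the 3-fold threshold, 19 did not, and 0 of the called genes changed sign. Among 96 counts and medians, 82 held, which for a count means within 1.5 times the value first obtained and for a median the same sign and a shift of at most 1.5-fold in the ratio itself. Among those medians the log2 value still moved from 0.15 to 0.54 between the parietal libraries with scaling to *Gapdh*, from -0.05 to -0.15 between the frontal libraries with the same scaling, and from 0.56 to 0.14 between the *Twist1*+/- bones with scaling to the osteoblast list. The number of the 10 genes called between the parietal libraries (2) became 1 with scaling to *Gapdh* or to the osteoblast list and 0 with GC content subtracted, and between the wild-type bones (3) it became 1 with scaling to *Gapdh* and 5 at 2-fold. Their median log2 ratio became -0.50 between the parietal libraries with scaling to the osteoblast list and -0.18 between the wild-type bones with scaling to *Gapdh*. The number of other mineralization genes called became 5 (from 3) between the parietal libraries at 2-fold or with scaling to the osteoblast list, 2 (from 1) between the frontal libraries without a floor, 4 and 10 (from 2) between the wild-type bones without a floor and at 2-fold, and 2 and 3 (from 1) between the *Twist1*+/- bones under the same settings. At 2-fold 20.2% of all genes were called between the parietal libraries, 26.9% between the wild-type and 11.9% between the *Twist1*+/- bones, and without a floor 15.2% between the frontal libraries, 23.6% between the wild-type and 15.6% between the *Twist1*+/- bones. With GC content subtracted 6.73% of all genes were called between the parietal libraries, with scaling to *Gapdh* 9.98% and to the osteoblast list 13.9%. Between the wild-type bones 16.2% were called with scaling to *Gapdh*. A lower threshold or floor admits more genes by construction, and scaling shifts all ratios of a pair alike. As deposited, *Gapdh* differed by -0.39 and 0.44 and the osteoblast list by 0.65 and 0.11 (log2) between the parietal and the wild-type libraries. The cause of the change with GC content was not tested. No paired analysis was possible because each group has 1 library and the labels give no replicate numbers. FPKM do not give the number of reads behind a value, but each of the 10 genes was above 10 FPKM in each library.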
